A study of Mus musculus with 2 samples.

Results

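The MiT/TFE family consists of 4 transcription factor genes, Mitf, Tfe3, Tfeb and Tfec, and was followed in mouse bone marrow cells grown into osteoclasts or macrophages. The members were taken as every probe set (a group of short probes against 1 transcript) whose annotation gives a member as its only gene symbol. This gave 5 probe sets, 2 for Mitf and 1 each for Tfe3, Tfeb and Tfec, of 34945 probe sets with 1 symbol, which stand for 18193 genes. Osteoclasts had been kept for 6 days in M-CSF plus RANKL, and macrophages for 6 days in M-CSF alone. Both came from C57/Black6 marrow, taken at 8 weeks of age and first grown for 3 days in M-CSF to give adherent progenitors. M-CSF is the growth factor that keeps macrophages alive, and RANKL is the cytokine that turns their precursors into osteoclasts, the large multinucleate cells that dissolve bone. The labels do not say whether marrow of several mice was pooled or whether both cultures began from the same animals. The sex-linked genes given below bear on the second point. Each cell type was measured on 1 Affymetrix array, so no value has a replicate, no test could be made and no p-value is given. Which members differ in transcript level between the cell types is the question that the design allows.

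MITF, TFEB, TFE3 and TFEC share a basic helix-loop-helix leucine zipper, through which they pair with each other and bind E-box DNA. MITF is best known from melanocytes, mast cells and osteoclasts: mice with certain dominant Mitf mutations, or lacking both Mitf and Tfe3, have dense bone because their osteoclasts do not resorb. TFEB and TFE3 switch on lysosome and autophagy genes when nutrients are scarce, and are held in the cytoplasm by phosphorylation through the mTOR complex on lysosomes. TFEC is found mainly in cells of the macrophage line and has been described as lacking part of the activating region of its relatives. Much of the control of these proteins lies in phosphorylation and nuclear entry, which a transcript array does not measure.

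Values are the deposited linear intensities. Signals of the osteoclast array were in general dimmer, with a median log2 difference (osteoclast minus macrophage) of -0.43 over 23708 probe sets measured in both arrays. Differences are therefore given relative to this shift unless called deposited, and a gene at 0 lay with the bulk of the array. A signal counted as measured above the 40th percentile of its array, and a stricter mark of background was set at the 95th percentile of 78 probe sets of olfactory or vomeronasal receptors, 25.8 in the osteoclast array and 28.3 in the macrophage array. Log2 differences (osteoclast minus macrophage) of probe sets that share a gene varied around the gene's mean with an SD of 0.49. It was taken over 5435 genes with several probe sets measured in both arrays. This spread between probe sets, which holds no variation among cultures or animals, is the one error available. The identity of the cultures was checked on marker genes. All 8 osteoclast markers were at least 2-fold higher in the osteoclast array, by 3.92 (Atp6v0d2) to 8.61 (Mmp9) on the log2 scale. Of 7 macrophage markers, 5 were at least 2-fold lower. Of all measured genes, 7.11% were 2-fold higher and 6.99% 2-fold lower. Csf1r, the M-CSF receptor gene, stayed bright in both, with 6005 in osteoclasts and 9899 in macrophages. The arrays also differed in sex-linked genes: Xist, the RNA that silences an X chromosome, gave 22.1 in osteoclasts and 1872 in macrophages, and the Y-linked Eif2s3y gave 321 in osteoclasts and 0.571 in macrophages. These are signals of a female macrophage culture and a male osteoclast culture, so the cultures did not begin from the same animals. Cell type therefore cannot be told apart from animal sex or other differences between the animals in any difference below.

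Tfec was the 1 member of the family past 2-fold. Its probe set 1419537_at gave 587 in osteoclasts and 196 in macrophages, a deposited ratio of 2.99 and a difference of 2.01 relative to the shift (4.03-fold). Both signals lay well clear of background, at 22.7 times the receptor mark in osteoclasts and 6.93 times it in macrophages. The difference was 4.07 times the spread between probe sets. Of 13647 genes measured in at least 1 array, 970 (7.11%) were at least 2-fold higher in osteoclasts, and 179 exceeded Tfec. As only 1 probe set stands for Tfec, no other measurement of the gene stands beside this value.

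Mitf was close to level between the arrays as deposited and somewhat higher relative to the shift. Its brighter probe set, 1455214_at, gave 1051 in osteoclasts and 1008 in macrophages, a difference of 0.49 (1.41-fold), about the size of the spread between probe sets. The dimmer one, 1422025_at, gave 94.1 in osteoclasts and 70.2 in macrophages, a difference of 0.86 (1.81-fold). Both probe sets lay on the osteoclast side, neither reached 2-fold, and 2846 genes had a larger difference than the brighter one. Which of the several promoter-specific forms of Mitf each probe set reads was not examined, so a change in 1 form could be missed.

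Tfe3 and Tfeb followed the bulk of the array. Tfe3 (probe set 1434318_a_at) gave 385 in osteoclasts and 631 in macrophages, a difference of -0.28 (1.21-fold lower). Tfeb (1422566_at) gave 95.7 in osteoclasts and 139 in macrophages, a difference of -0.11 (1.08-fold lower). Both differences were smaller than the probe-set SD of 0.49. Tfe3 lies on the X chromosome, and the arrays differ in Xist as given above; the part of this in the Tfe3 value was not tested.

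**Figure D1:**
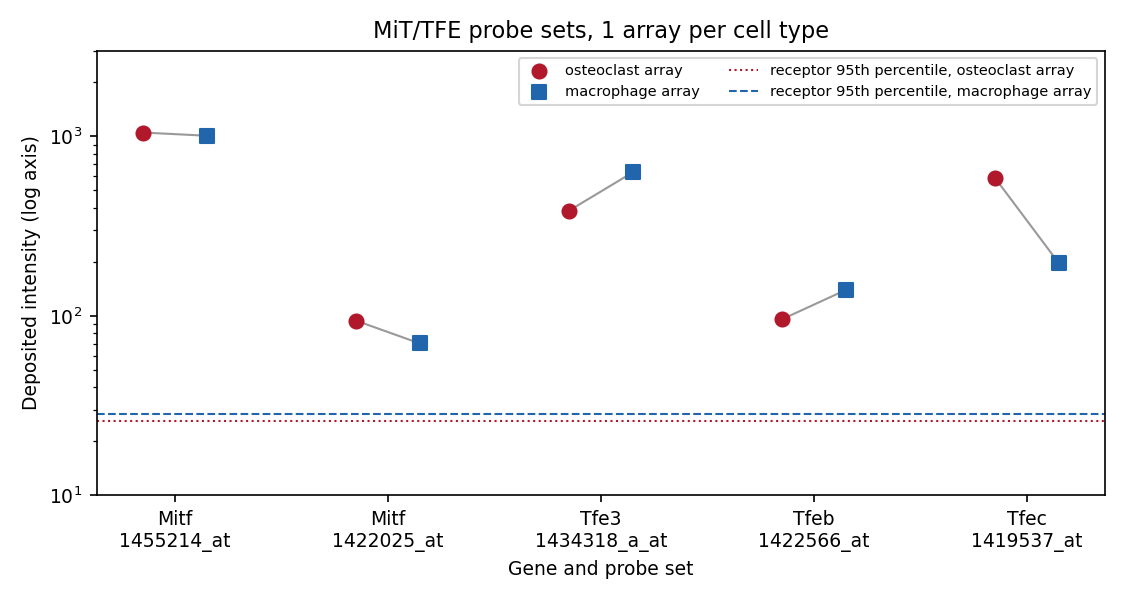
Deposited intensity (log axis) of the 5 MiT/TFE probe sets in the osteoclast array (circles) and the macrophage array (squares), each point 1 array, with the receptor 95th percentile of each array as a dotted or dashed line. Tfec stands at 587 in osteoclasts against 196 in macrophages, the Mitf probe sets are near level or slightly higher in osteoclasts, Tfe3 and Tfeb are lower as deposited, and all points lie above both lines.

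Differences between members do not depend on the scaling between the arrays, because the shift cancels. Tfec differed from Tfe3 by 2.29 on the log2 scale, from Tfeb by 2.12 and from Mitf by 1.52. These are 3.28, 3.04 and 2.18 times the SD of 0.70 that the spread between probe sets gives for such a contrast. Mitf differed from Tfe3 by 0.77 and from Tfeb by 0.60, and Tfeb from Tfe3 by 0.17, which are 1.10, 0.86 and 0.24 times that SD. In contrasts added after the values were seen, Tfec differed from the dimmer Mitf probe set by 1.16 (1.66 times that SD) and from the median of both Mitf probe sets by 1.34 (1.92 times). Tfec was thus more than 3 such SDs from Tfe3 and Tfeb, its distance from Mitf depended on the Mitf probe set, and the order of Mitf, Tfeb and Tfe3 is not settled by these arrays. Signals of different probe sets were not compared as levels, since probes differ in how strongly they bind.

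**Figure D2:**
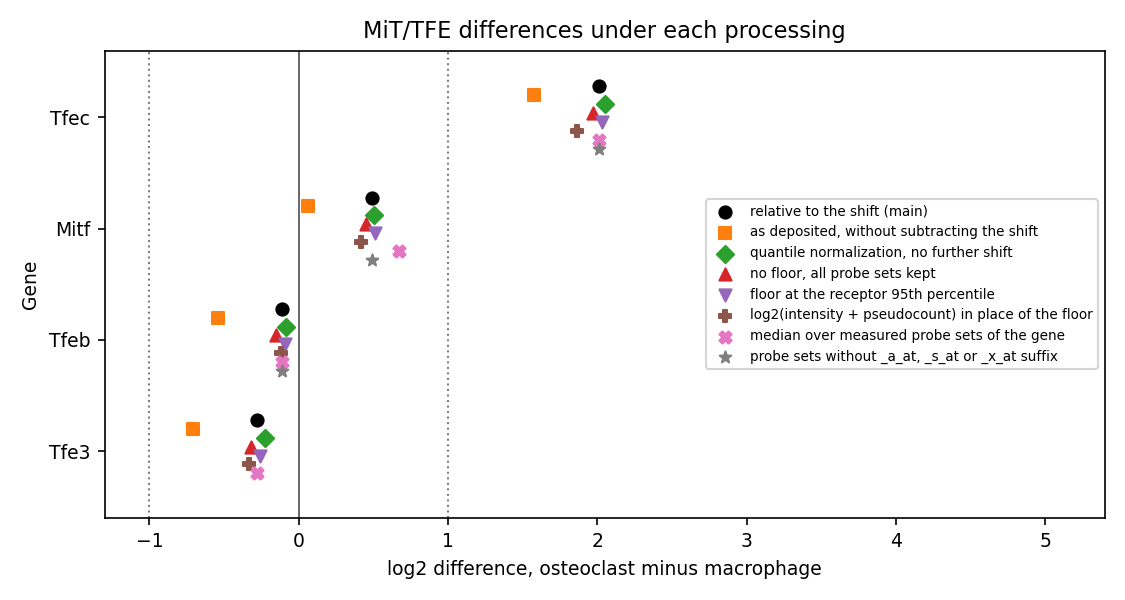
Log2 difference (osteoclast minus macrophage) of each member under the main processing and 7 alternatives, 1 symbol per processing; solid line 0, dotted lines 2-fold. Tfec stays beyond 2-fold in all 8, from 1.58 as deposited to 2.05 after quantile normalization, and Mitf, Tfeb and Tfe3 stay within 2-fold wherever they have a value; Tfe3 has none when probe sets with a suffix are left out.

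The genes nearest to each member in the plane of both log2 signals were read off, over the 2 arrays only, as a description of how crowded each position is. For Tfec these were Slc5a3, a myo-inositol transporter gene, at a distance of 0.074 with 570 in osteoclasts and 188 in macrophages, then Ndrg4 (0.14) and the DNA methyltransferase gene Dnmt3a (0.14). Only 7 named genes lay within 0.25 of Tfec. Mitf was nearest to Gabarapl2, a gene of the autophagy machinery (0.026), Naa38 and Ankrd13a, with 104 genes within 0.25. Tfe3 was nearest to Rc3h2, Rhot1 and Otud6b (0.0096 to 0.016), with 211 genes within 0.25, and Tfeb to Dhrs11, Pex5 and Trmo (0.015 to 0.024), with 265. With 2 arrays such nearness says only that the signals were alike.

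Genes that MITF or TFE3 have been described to switch on in osteoclasts formed the list with the largest median difference of the 6 described here, 3.92 over 9 genes, against 0.0041 over all measured genes. Of the 9, 6 were at least 2-fold higher and none was 2-fold lower, where 7.11% and 6.99% of all measured genes were. The list overlaps the osteoclast markers in Acp5, Ctsk and Atp6v0d2, and its members were chosen with earlier results of these data known. Acp5, the tartrate-resistant acid phosphatase, gave 8167 in osteoclasts and 104 in macrophages (6.72). Ctsk, the collagen-cleaving cathepsin K, gave 9202 in osteoclasts and 134 in macrophages (6.53). In both genes the macrophage signal was low but above the receptor mark.

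The other members past 2-fold include a fusion gene, a receptor and parts of the acid-secreting machinery. Dcstamp, needed for osteoclast fusion, gave 2813 in osteoclasts and 111 in macrophages (5.10). Oscar, an immunoglobulin-like receptor that costimulates osteoclast formation, gave 628 in osteoclasts and 25.0 in macrophages, and was at least 22.2-fold higher as deposited with the macrophage value raised to the receptor mark. Atp6v0d2, a proton pump subunit, gave 4068 in osteoclasts and 363 in macrophages (3.92), with its other probe set at 3.62. Clcn7, the chloride transporter that balances proton secretion, gave 1672 in osteoclasts and 381 in macrophages (2.57), and its 3 probe sets ran from 2.01 to 2.57. Each gene with several probe sets was thus higher on all of them.

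The remaining 3 described targets did not share that difference. Ostm1, the partner protein that stabilises the Clcn7 product, gave 906 in osteoclasts and 1006 in macrophages (0.28). Gpnmb, a lysosomal membrane glycoprotein gene, was among the bright signals of both arrays, with 7338 in osteoclasts and 9274 in macrophages (0.095). Cdh1, the E-cadherin gene, gave 18.9 in osteoclasts and 28.3 in macrophages, at or under the receptor mark in both. Clcn7 and Ostm1, whose proteins work as 1 complex, therefore differed from each other by 2.29 on the log2 scale, 3.27 times the SD of such a contrast. This contrast uses the brightest Clcn7 probe set. The other Clcn7 probe sets gave smaller differences, 2.17 and 2.01, so the distance from Ostm1 depends on the probe set.

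**Figure D3:**
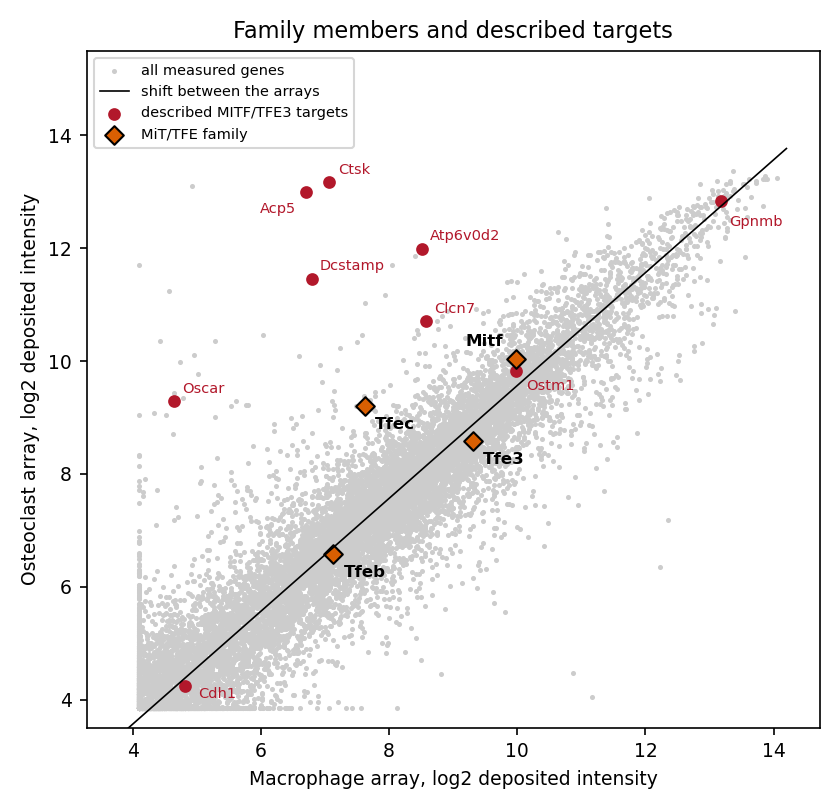
Log2 deposited intensity in the macrophage array (horizontal) and the osteoclast array (vertical) for all measured genes (grey), the 4 MiT/TFE members (diamonds) and the 9 described targets (red), with the line marking the shift of -0.43. Tfec lies 2.01 above the line, Mitf lies 0.49 above it, Tfe3 and Tfeb lie 0.28 and 0.11 below it, and 6 of the 9 described targets lie between 2.57 and 6.72 above it.

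Promoter sequence is shown for Tfec, the member that differed, and for described targets with an E-box, to set the binding letters beside the values. Windows from RefSeq on GRCm38.p6 run from 250 bases before to 50 after an annotated start, and the 150 bases before the start are printed in lower case with matches in capitals. Motifs were searched on both strands: the E-box CACGTG, a variant E-box with the letters CATGTG (its other strand reads CACATG), and a longer form of each that contains it, TCACGTGA for the first and TCATGTG for the variant. The lines give the minus strand for Tfec, Acp5 and Oscar and the plus strand for Clcn7 and Mcoln1, at chr6:16898442-16898591, chr9:22130599-22130748, chr7:3616158-3616307, chr17:25133241-25133390, chr17:25136481-25136630 and chr8:3500369-3500518 in turn.
Tfec: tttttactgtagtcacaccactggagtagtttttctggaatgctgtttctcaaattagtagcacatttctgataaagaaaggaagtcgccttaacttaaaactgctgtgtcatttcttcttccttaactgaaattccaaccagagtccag
Acp5: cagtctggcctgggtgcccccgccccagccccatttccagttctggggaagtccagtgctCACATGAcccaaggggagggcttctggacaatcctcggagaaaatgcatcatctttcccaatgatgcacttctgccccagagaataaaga
Oscar: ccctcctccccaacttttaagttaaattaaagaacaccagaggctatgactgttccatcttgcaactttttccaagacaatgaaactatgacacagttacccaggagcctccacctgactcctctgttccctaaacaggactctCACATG
Clcn7, upstream start: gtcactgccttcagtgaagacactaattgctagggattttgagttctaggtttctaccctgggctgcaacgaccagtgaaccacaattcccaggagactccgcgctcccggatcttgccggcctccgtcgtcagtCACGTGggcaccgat
Clcn7, downstream start: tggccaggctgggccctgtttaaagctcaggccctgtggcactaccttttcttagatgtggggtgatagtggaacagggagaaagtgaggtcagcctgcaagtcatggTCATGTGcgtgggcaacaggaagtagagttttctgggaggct
Mcoln1: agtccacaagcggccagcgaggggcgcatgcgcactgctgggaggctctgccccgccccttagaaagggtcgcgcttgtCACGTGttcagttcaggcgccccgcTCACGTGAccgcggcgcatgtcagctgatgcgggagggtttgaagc

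None of the 9 windows of the 4 family members, 3 for Mitf, 2 for Tfe3, 3 for Tfeb and 1 for Tfec, held the E-box or its variant. At least 1 of the motifs stood in 20.4% of all 32851 windows. Of the described targets, 6 had windows, and 3 of these held the E-box or its variant, against 22.7% of all 27025 genes with windows. How these genes came to be described as targets was not examined, so the list may favour genes with these letters. Acp5 has 3 windows, of which the one printed holds the longer variant, printed as its other strand, 90 bases before the start. Oscar has the variant directly before its start. Clcn7 has the E-box at base -15 and, in the 50 bases after the start, its longer form at base 7, while the downstream start has the longer variant at base -42. Ctsk, with 1 window, had neither motif there, and neither did Ostm1 or Gpnmb. A match is a string of letters and not a measured binding site, and motifs outside these windows were not searched.

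The lysosome and autophagy genes described as TFEB targets, the CLEAR network, were mostly within 2-fold between the cell types. Of 36 measured genes, 5 (13.9%) were at least 2-fold higher and none was 2-fold lower, against 7.11% and 6.99% of all measured genes, with a median of 0.13. On the deposited values, 2 genes passed 2-fold upward and 7 downward, where 3% and 17.5% of all measured genes did so. The 5 higher genes were Clcn7 and the proton pump subunit genes Atp6v1b2 (1.45), Atp6v1d (1.39), Atp6v1a (1.21) and, named after its value was seen, Atp6v1h (1.16). Atp6v1a gave 4728 in osteoclasts and 2754 in macrophages, and Atp6v1d gave 2608 in osteoclasts and 1342 in macrophages. Probe sets of Atp6v1b2 ran from 0.20 to 1.45. These counts rest on the brightest probe set of each gene. Other probe sets also passed 2-fold in Neu1, Map1lc3b, Lamp2 and Wipi1, named after their values were seen. Neu1 ran from -0.22 to 1.08 over 3 probe sets and Map1lc3b from -0.15 to 1.12 over 4. Lamp2 ran from -1.29 to 0.16 over 4 and Wipi1 from -1.23 to 0.13 over 6. The brightest members with a difference below 0 were Ctsb and Psap. Ctsb, the protease cathepsin B, gave 6857 in osteoclasts and 14588 in macrophages (-0.66). Its 5 probe sets ran from -1.49 to -0.47 with a median of -1.05, so whether Ctsb passes 2-fold lower depends on the probe set. Psap, which encodes activators of lipid-degrading hydrolases, gave 6663 in osteoclasts and 9473 in macrophages (-0.075), and its other probe set gave 0.34, so Psap has no settled direction.

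E-box letters were more frequent in this list than in the table as a whole, as its definition implies: the network was drawn up from genes that carry this motif. CACGTG stood in a window of 17 of 33 CLEAR genes (51.5%) and of 8.09% of all genes. The extended TCACGTGA stood in 10 of the 33 (30.3%) and in 1.12% of all genes. Mcoln1, the calcium channel gene of lysosomes, has the E-box at base -71 and its longer form at base -46, and gave 230 in osteoclasts and 281 in macrophages (0.14). The 17 measured CLEAR genes with CACGTG had a median of 0.14 and the 15 without it 0.031, and over all measured genes the medians were -0.048 for 1238 with CACGTG and 0.010 for 9763 without it.

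Genes that control where the family's proteins reside showed few differences. Of 21 measured genes of nutrient sensing (Rag GTPases, the Ragulator and folliculin complexes, mTOR and calcineurin), 1 was at least 2-fold higher and 1 lower, with a median of -0.16, shares close to the 7.11% and 6.99% of all genes. Rragd, a Rag GTPase gene that is itself a described target of the family, gave 149 in osteoclasts and 68.4 in macrophages (1.55). Its other measured probe set was dim and gave 0.11. Rptor, which encodes the mTOR subunit that binds substrates, gave 151 in osteoclasts and 428 in macrophages (-1.07), with its other measured probe set at -1.21. On the brightest probe set of each gene, Rragc and the folliculin gene Flcn were within 2-fold, as were all other measured members. Other probe sets passed 2-fold in Gsk3b and Lamtor2, named after their values were seen. Gsk3b ran from -0.52 to 1.84 over 6 probe sets, and Lamtor2 from -1.35 to -0.33 over 2.

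Of 16 measured partners, kinases and repressors of MITF, 1 was at least 2-fold higher and 1 lower (6.25% each), near the 7.11% and 6.99% of all measured genes, with a median of 0.075. Nfatc1, the master factor of osteoclast formation that acts with MITF on Acp5 and Ctsk, gave 1207 in osteoclasts and 150 in macrophages (3.44), and its 5 probe sets ran from 1.14 to 3.44. Pias3, whose product binds MITF and blocks its activity, gave 50.8 in osteoclasts and 209 in macrophages (-1.61). The other Pias3 probe set gave -1.64, so the probe sets differed from each other by less than 0.49. The counts rest on the brightest probe set of each gene. Other probe sets passed 2-fold in Mapk14, Ywhag and Ywhab, named after their values were seen. Mapk14 ran from -0.96 to 1.77 over 6 probe sets, Ywhag from -0.68 to 1.35 over 4 and Ywhab from -1.18 to 0.77 over 6. A further member, Ikzf4, was under the floor in both arrays.

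The other E-box binding factors of the same structural class had 2 of 16 genes (12.5%) at least 2-fold higher and none lower, against 7.11% and 6.99% of all measured genes, with a median of 0.35. Max, the shared partner of the Myc and Mad proteins, gave 367 in osteoclasts and 90.0 in macrophages (2.46) on 1 probe set. This exceeds the difference of Tfec by 0.45, less than the SD of 0.70 for such a contrast. Mycl, a Myc family gene, gave 62.5 in osteoclasts and 6.86 in macrophages, at least 2.21-fold higher as deposited against the receptor mark. Its other probe sets gave 30.5 and 19.7 in osteoclasts and lay under the floor in macrophages. The counts of this list also rest on the brightest probe set of each gene. Another probe set of Mxd3, named after its value was seen, passed 2-fold lower. Mxd3 ran from -1.09 to -0.081 over 3 probe sets. The brightest members with a difference below 0 were within the probe-set SD on their brightest probe set. Usf2 gave 244 in osteoclasts and 451 in macrophages (-0.45), and its other probe set gave -0.72, beyond that SD. Srebf2, the regulator of cholesterol synthesis, gave 243 in osteoclasts and 343 in macrophages (-0.064), and its other probe set gave 0.060, so it has no settled direction. With 1 of 4 MiT/TFE genes and 2 of 16 other factors past 2-fold, the family cannot be set apart from its structural class by these counts.

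**Figure D4:**
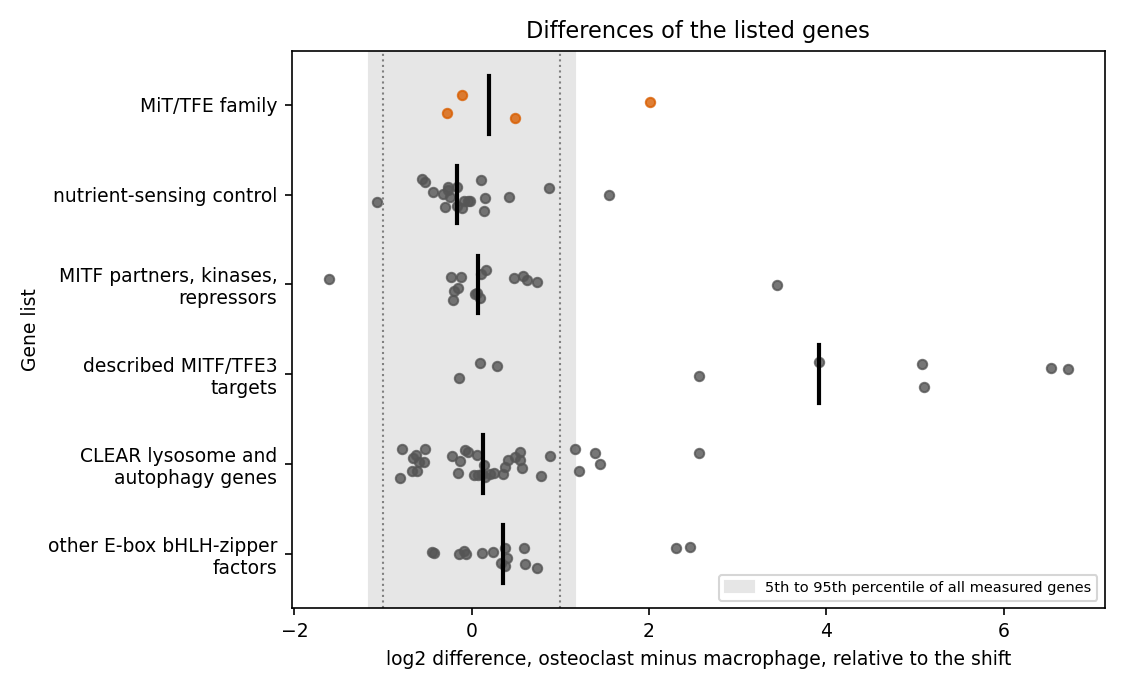
Log2 difference (osteoclast minus macrophage, relative to the shift) of every measured gene of 6 lists, 1 point per gene, black bars for list medians, dotted lines for 2-fold and grey for the 5th to 95th percentile of all measured genes (-1.16 to 1.17). Tfec is the 1 family point outside the grey band, the described MITF/TFE3 targets reach 6.72, and most points of the other lists lie inside the band.

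Marker genes of other cell types, both those that use MITF and those found in marrow, were set beside these values. Melanocyte markers had 7 of 10 genes measured and none past 2-fold, with summed signals of 128 in osteoclasts and 193 in macrophages, and Tyr, Tyrp1 and Mlana were under the floor in both arrays. Mast cell markers had 3 of 8 measured and none past 2-fold, with sums of 83.3 in osteoclasts and 129 in macrophages, and Tpsb2, Cma1, Mcpt4, Ms4a2 and Hdc were under the floor in both. Granulocyte markers were at least 2-fold higher in osteoclasts in 8 of 9 genes, where 7.11% of all measured genes were. Their sums were 6092 in osteoclasts and 3241 in macrophages. As deposited, 5 of the 9 were 2-fold higher, where 3% of all measured genes were. Elane and Ctsg were under the floor in macrophages. With the macrophage signal raised to the receptor mark, Elane was 2.18-fold and Ctsg 1.70-fold higher relative to the shift. Stromal and osteoblast markers summed to 6113 in osteoclasts and 12114 in macrophages, with 1 of 8 at least 2-fold higher and 1 lower. Dendritic cell markers summed to 195 in osteoclasts and 290 in macrophages (5 of 7 measured, 1 lower by 2-fold), and lymphocyte markers to 259 in osteoclasts and 757 in macrophages (4 of 9 measured, 2 lower). Beside these counts, 7.11% of all measured genes were 2-fold higher and 6.99% 2-fold lower. The part of granulocytes and stromal cells in the Tfec and Mitf values was not tested. In mixed cultures fewer cells of a type and less RNA per cell cannot be told apart.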

How the data were processed

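Gene expression was read from the deposited table, which holds a linear intensity for 45101 probe sets on 1 osteoclast and 1 macrophage array. Per the labels' protocols, biotinylated cRNA was made from 1 µg of total RNA by the one-cycle Affymetrix protocol. The method by which the authors condensed probes, corrected background and scaled each intensity was not given in the sources used here. The 64 control probe sets were left out. GEO's platform annotation gave 1 symbol to 34945 probe sets, several to 932 and none to 9160, of which those with 1 symbol were used. RefSeq's gene table of GRCm38.p6 served for names only and held the Entrez identifier of 34741 of them.

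Intensities under the 40th percentile of their array, 14.4 in osteoclasts and 17.0 in macrophages, were raised to it before log2 was taken, so a difference of a gene measured in 1 array only is a bound. Of the receptor probe sets, 15.4% in osteoclasts and 20.5% in macrophages exceeded this floor. Where a gene had several probe sets, the brightest by mean log2 signal stood for it, and a difference of 2-fold (1 on the log2 scale) was counted. The folds written "at least" for Oscar and Mycl are ratios of deposited values with the dimmer signal raised to the receptor mark. Genes called at least 2-fold higher or lower were counted on differences relative to the shift, unless called deposited. The number of arrays, 1 per group, limits the precision of every value. The steps were run on simulated arrays with known differences placed only in genes bright in macrophages. The simulated noise was smaller than the spread between probe sets, so that run does not cover dim genes or noise of this size. Named genes were all members of the family and of lists of up to 12 genes, and, of longer lists, up to 4 per direction with the largest differences of 2-fold or more, or else the 2 brightest, with the 3 nearest genes of each family member. Members and lists were chosen with earlier results of these data known. Python 3.11.15, numpy 2.4.6, pandas 2.3.3 and matplotlib 3.10.9 were used. The alternatives tried were deposited values without the shift, quantile normalization, no floor, a floor at the receptor mark, a pseudocount of 16, the median over probe sets, and probe sets without a suffix.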

Additional observations from a re-analysis of the deposited data

How the results depend on the processing

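Tfec stayed at least 2-fold higher in osteoclasts under the main processing and all 7 alternatives (1.58 to 2.05), and Mitf (0.059 to 0.67), Tfeb (-0.54 to -0.082) and Tfe3 (-0.71 to -0.22) stayed within 2-fold and kept their sign; Tfe3 had no value without suffixed probe sets. As deposited, 409 genes were 2-fold higher and 2390 lower, against 970 and 954 relative to the shift. Without a floor, which adds dim probe sets, 2644 were higher and 2719 lower. Among CLEAR genes 2 were higher and 7 lower as deposited, and 1, Ctsb, was lower with the median over probe sets (-1.05). That median left 0 nutrient-sensing genes higher, since Rragd gave 0.83, and 2 MITF partners lower, Pias3 and Ywhab. Without a floor 1 other bHLH-zipper factor was lower. In 105 other comparisons of the family and its lists with these alternatives, differences moved by less than the probe-set SD of 0.49 and counts by at most 1.5 times. No paired analysis was possible because each group holds 1 array, and for the same reason no array could be left out.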

Other observations

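Within the CLEAR list, the proton pump genes stood on the osteoclast side, a division made after the values were seen and given as a description. All 7 pump subunit and accessory genes lay above the shift, between 0.48 and 1.45 with a median of 1.16, and 4 were at least 2-fold higher. The other 29 members, mostly lysosomal hydrolases, membrane proteins and autophagy genes, had a median of 0.031, with 15 above the shift, 1 at least 2-fold higher and none 2-fold lower. As deposited, the medians were 0.73 for the pump genes and -0.40 for the others, 1 pump gene and 1 other member were 2-fold higher, and 0 pump genes and 7 other members were 2-fold lower.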
